A study of Homo sapiens with 79 samples.

Results

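The HOX-positive neurons of day 60 were 110 of the 578 cells captured from retinal organoids at day 60 of differentiation, and of the 1976 cells of the whole data set. The share was 19.0% of the day 60 cells (15.9 to 22.5). They were chosen from their read counts, as cells with at least 5 reads each in at least 3 of the 6 neuron genes NEFL, NEFM, STMN2, NSG2, CAMKV and DCX, at least 1 read in at least 3 HOX genes, and fewer than 5 reads of ATOH7 and fewer than 5 of POU4F2, which are transcription factors of the retinal ganglion cell lineage. The levels of these genes in the chosen cells follow from the choice and are given as a description. The organoids were grown from the human embryonic stem cell line H9 carrying a CRX-GFP reporter, an established cell line, so every cell comes from 1 line. All time points had the same growth protocol, in which fetal calf serum, the thyroid hormone T3, taurine and retinoic acid were added to the medium during differentiation, so no group without retinoic acid is among the samples. The day 60 and day 90 cells fill 1 Fluidigm C1 chip each and the day 200 cells fill a pair of them, named chip a and chip b, with 19, 20, 20 and 20 chip columns as samples. Neither columns nor cells stand for separate cultures, which is why no test was made, and a difference between days cannot be told apart from a difference between chips.

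HOX genes encode homeobox transcription factors that lie in 4 clusters, A to D, on 4 chromosomes, and their order along each cluster follows their order of use along the body axis. Low-numbered genes are used from the hindbrain backwards and high-numbered genes towards the tail end of the spinal cord, and retinoic acid is a known inducer of the low-numbered genes. The retina and the forebrain form in front of the region in which HOX genes are used, and are specified by eye field factors such as RAX, SIX3, SIX6, PAX6 and LHX2.

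Levels are given as CPM, reads scaled to the library size, of the summed reads of a group of cells, with the lowest, the median and the highest of the 19 chip columns. Ranges in parentheses after a level or a share are 95% intervals, exact Poisson for summed reads and exact binomial by Clopper-Pearson for shares. They cover counting error only, and not the spread between cells, columns or cultures. The reads carry no molecular identifiers and several can come from 1 molecule, so the intervals of levels can be too narrow even for counting error. A gene counted as detected in a cell had at least 5 reads, unless 1 read is named. The other day 60 cells fell into 4 groups by the same genes. These were 81 cells with at least 5 reads of ATOH7 or POU4F2, 29 neurons with reads in fewer than 3 HOX genes (HOX-low neurons), 167 HOX-positive cells without the neuron genes, and 191 remaining cells.

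The HOX-positive neurons were spread over the day 60 chip. Each of the 19 columns held 2 to 11 of them (median 6), which was 6.06 to 39.3% of the cells of a column (median 20), and 36 of 38 chip rows held at least 1. The columns had 4008924 to 7575966 reads. The HOX-positive neurons had 92483 to 732303 reads each (median 154230), against medians of 158137 to 190024 in the other 4 groups. The 40 row barcodes are shared between columns, each with cells in 35 to 59 of the 79 columns, so a cell is defined by column and row together. A doublet caller marked 1 cell of the day 60 chip, which was a HOX-low neuron.

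The neuron genes were not met by all cells in the same way. DCX, a microtubule-associated protein of young neurons, was detected in 98.2% of the HOX-positive neurons, at 1342 CPM (511, 1335 and 2165 in the lowest, median and highest column). STMN2, a regulator of microtubules in growing axons, was detected in 94.5%, at 1443 CPM (402.3, 1370 and 2998). The neurofilament genes NEFL and NEFM were detected in 64.5% and 62.7% of the cells. Both were uneven between columns, with 44.3 to 1830 CPM for NEFL and 0 to 1642 CPM for NEFM. NSG2, a neuronal vesicle protein, was detected in 64.5% and CAMKV, a kinase-like synaptic protein, in 12.7%. Thus 41 cells met the rule with exactly 3 genes, 38 with 4, 24 with 5 and 7 with all 6. Neuron genes that the rule did not use were also present. MAP2, a dendrite protein, was detected in 92.7% of the cells at 876.5 CPM (275, 813 and 1722), against 46.6% of the remaining cells. The remaining cells do not meet the rule for the neuron genes, so this difference is tied to the choice of cells. TUBB3, a tubulin much used as a neuron marker, had a summed level of 0.0526 CPM in the HOX-positive neurons and was detected in none of them, nor in the ATOH7 or POU4F2 cells or the remaining cells. Its absence is therefore not read as a feature of the HOX-positive neurons, and whether the counting of reads had a part in it was not tested.

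The edges of the rule were narrow for the HOX genes. There were 5 HOX-positive neurons with reads in exactly 3 HOX genes, and their summed HOX level per cell had a median of 85.3 CPM (20.35 to 1071). The 9 neurons just outside, with reads in exactly 2 HOX genes, had a median of 176 CPM (17.3 to 320). At the edge of the neuron genes, the 41 cells with exactly 3 had a median HOX level of 1594 CPM, and the 42 HOX-positive cells with exactly 2 had 1189 CPM. A further 8 HOX-positive neurons had 1 to 4 reads of ATOH7 or POU4F2.

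Most HOX-positive neurons were far from the edge of the HOX genes, but not from that of the neuron genes, which 41 cells met exactly. They had reads in a median of 9 HOX genes (3 to 19) and detected a median of 7 at 5 reads (0 to 14). Their summed HOX level per cell had a median of 2550 CPM (quartiles 1139 and 4103), and 86 of the 110 (78.2%) reached 1000 CPM. Of the HOX-positive cells without the neuron genes 47.3% reached that level (median 922 CPM), of the ATOH7 or POU4F2 cells 17.3% (median 65.7) and of the remaining cells 1 of 191 (median 7.70). The groups overlapped, since 1 ATOH7 or POU4F2 cell had 4273 CPM and 1 HOX-positive cell without the neuron genes had 14511 CPM.

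**Figure D1:**
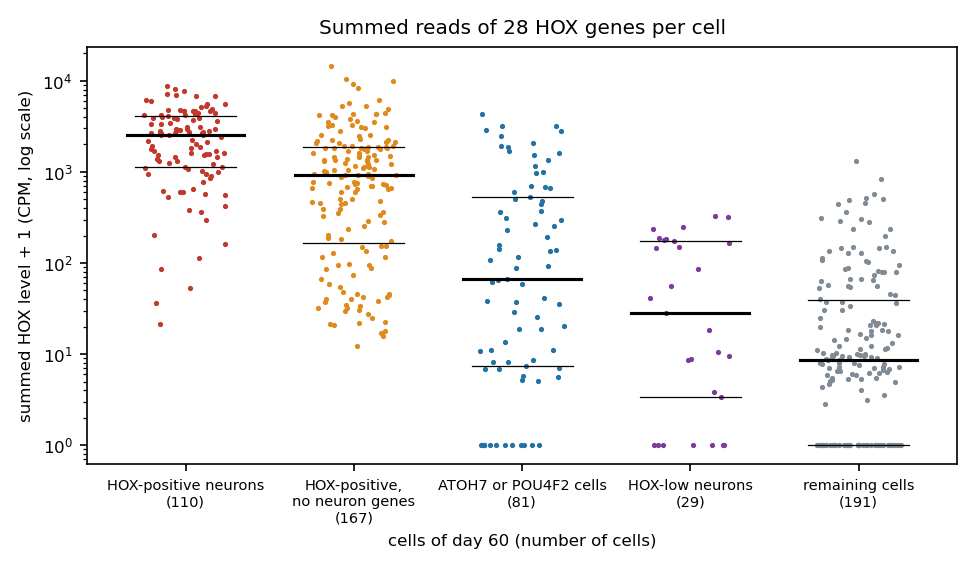
Summed level of the 28 HOX genes in each day 60 cell, in CPM with 1 added on a log axis, for the 5 groups of cells (1 point per cell, thick line median, thin lines quartiles). The HOX-positive neurons have a median of 2550 CPM and the HOX-positive cells without the neuron genes 922 CPM, while the other 3 groups have medians of 65.7 CPM or less.

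Of the 28 HOX genes in the count table, 27 had reads in the HOX-positive neurons and 17 were detected in at least 10% of them. HOXC11, the only gene above group 10 in the table, had none. The most frequently detected genes were HOXB3, in 70% of the cells (60.5 to 78.4), and HOXB5, in 69.1% (59.6 to 77.6). HOXB5 (chr17:48591257-48593779) had 633 CPM (622 to 644) and 51.3, 570 and 1690 CPM in the lowest, median and highest column. HOXB3 (chr17:48548870-48604912) had 411 CPM (117, 433 and 1157) and HOXA5 (chr7:27141052-27143681) had 277 CPM (95.2, 237 and 582). These 3 genes were read in all 19 columns, and their lowest columns were above the levels of the remaining cells, which were 18.1, 10.2 and 1.48 CPM. The remaining cells have reads in fewer than 3 HOX genes by the rule, so this difference follows from the choice of cells.

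The genes next in number in cluster B were read almost as widely. HOXB8 (163 CPM) and HOXB9 (138.5 CPM) were each detected in 54.5% of the HOX-positive neurons (44.8 to 64.1). HOXB2 was detected in 50.9%, HOXB6 in 49.1%, HOXB7 in 44.5% and HOXB4 in 43.6%. HOXB1, the first gene of the cluster, had 3.42 CPM. In cluster A, HOXA3 was detected in 49.1% of the cells but ranged from 0.505 to 920 CPM over the columns (median 135). HOXA2 was detected in 11.8%. HOXC4 led cluster C, with 34.5% of the cells and 120 CPM, of which 25.6% came from 1 cell. HOXA9 and HOXA10 rested on single cells, which gave 66.2% and 97.6% of their reads, and are not read as features of the group. In the annotation HOXA3 overlaps HOXA4, HOXA5 and HOXA6, HOXA9 overlaps HOXA10, HOXB3 overlaps HOXB4, HOXB5 and HOXB6, and HOXB7 overlaps HOXB8 and HOXB9. HOXC4 overlaps HOXC5 and HOXC6, HOXC6 also overlaps HOXC8 and HOXC9, and HOXD3 overlaps HOXD4. Reads were counted in the union mode of HTSeq, which assigns a read that falls on more than 1 gene to none, so the levels of these genes, HOXB5 and HOXA5 among them, are uncertain.

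**Figure D2:**
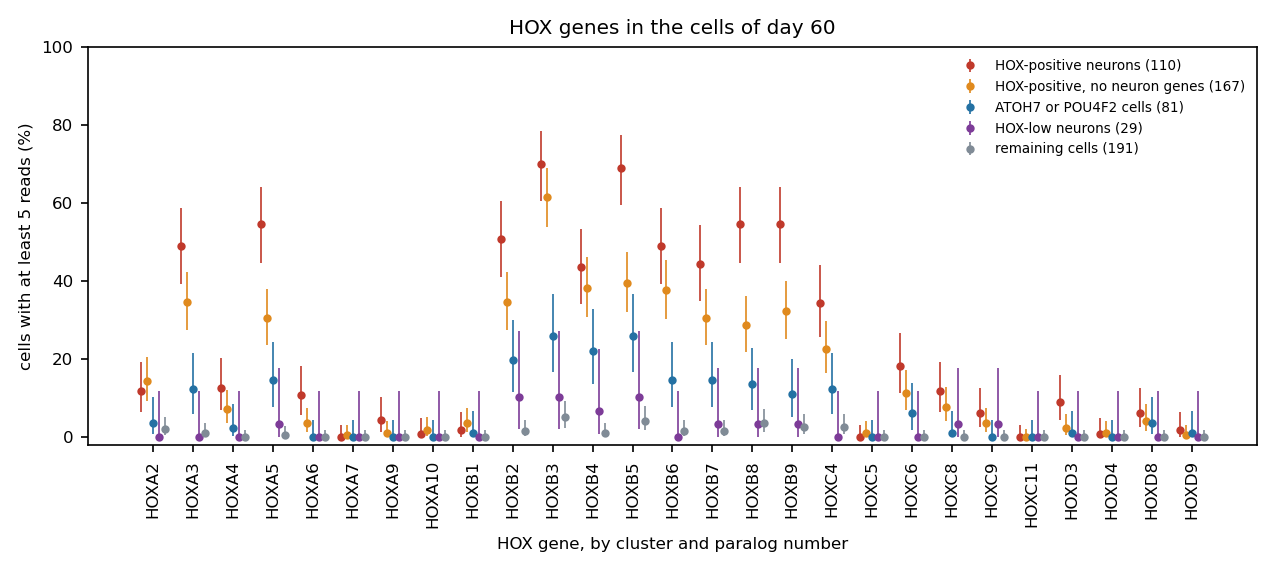
Share of cells with at least 5 reads of each of 27 HOX genes, in percent with 95% exact binomial intervals, for the 5 groups of day 60 cells (numbers of cells in the key). The HOX-positive neurons reach 69.1% for HOXB5 and 54.5% for HOXB8 and HOXB9, the HOX-positive cells without the neuron genes follow the same outline at 39.5% for HOXB5, and cluster D stays low in every group.

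Divided by the exon length of each gene, HOXB5 had 340.5 CPM per kilobase, HOXA5 161, HOXB7 81.9, HOXB8 67.8 and HOXB3 55.3. On that scale cluster B held 68.4% of the summed HOX level of the HOX-positive neurons, cluster A 23.9%, cluster C 6.79% and cluster D 0.887%. Groups 4 and 5 held 56.1%, groups 6 to 8 22.2%, groups 1 to 3 15.7% and groups 9 and 10 6.06%. The HOX-positive cells without the neuron genes had nearly the same makeup, with 71.6% in cluster B, 20.7% in cluster A and 56.6% in groups 4 and 5.

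Cell by cell, 106 of the 110 HOX-positive neurons (96.4%, 91.0 to 99.0) detected a gene of cluster B, 83 (75.5%) a gene of cluster A, 49 (44.5%) of cluster C and 18 (16.4%) of cluster D. There were 24 cells with cluster B and no cluster A gene at 5 reads, and 1 cell with A and no B. Genes of 2 clusters were detected in 46 cells, of 3 in 38, of all 4 in 9, of 1 in 14 and of none in 3. The highest-numbered gene detected was of group 9 in 63 cells (57.3%, 47.5 to 66.7), of group 8 in 20 and of groups 5 to 7 in 20 together, namely 7, 6 and 7. It was of group 10 in 1 cell and of groups 2 or 3 in 3 cells. Among the HOX-positive cells without the neuron genes, group 9 was the highest in 34.7% (27.5 to 42.5). After each cell was thinned to 50000 reads and 1 read counted, the shares with group 9 as the highest were 66.4% and 39.5%. Thinning evens the read number but not the HOX level, which had medians of 2550 and 922 CPM in these 2 groups of cells. Groups 9 and 10 held nearly the same part of the HOX level per kilobase in both, 6.06% and 5.75%. The part of the HOX level in the difference between the shares was not tested.

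HOXA4 and HOXC4 are shown here by the 250 bases before their transcription start, as RefSeq gives them on GRCh38.p14. They are examples from clusters A and C, taken because each has 1 listed start and letters of a searched motif. HOXA4 was little read in the HOX-positive neurons, at 6.67 CPM per kilobase, beside 161 for HOXA5 and 43.3 for HOXC4. In the HOX-positive cells without the neuron genes HOXA4 had 9.05 CPM per kilobase. The RefSeq table used here has no entry for HOXB5 and HOXA5. HOXA4 starts on the minus strand, with the window at chr7:27130758-27131007, and HOXC4 on the plus strand, with the window at chr12:54016638-54016887. Capitals mark ATTGG, which is the CCAAT box read on the other strand, and TGACAG, the letters bound by MEIS factors.
HOXA4: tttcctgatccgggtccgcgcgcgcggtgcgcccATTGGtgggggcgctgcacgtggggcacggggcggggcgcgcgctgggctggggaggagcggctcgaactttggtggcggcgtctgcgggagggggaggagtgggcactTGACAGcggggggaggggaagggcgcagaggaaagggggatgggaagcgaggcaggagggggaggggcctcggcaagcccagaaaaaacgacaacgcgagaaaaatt
HOXC4: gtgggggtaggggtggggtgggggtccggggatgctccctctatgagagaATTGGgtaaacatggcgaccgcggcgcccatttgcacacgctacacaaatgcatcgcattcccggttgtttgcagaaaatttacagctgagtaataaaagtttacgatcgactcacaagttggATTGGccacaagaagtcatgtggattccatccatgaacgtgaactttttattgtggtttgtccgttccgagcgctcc

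Counted from the first base of the window, HOXA4 held ATTGG at base 35 and TGACAG at base 144, and HOXC4 held ATTGG at bases 51 and 174. Windows of 250 bases before the start were searched on both strands for 5 motifs, none of which contains another. CCAAT was in 13 of the 20 listed starts of 13 HOX genes (65%) and in 32.01% of 35116 starts of all genes. The letters AGGTCA or GGTTCA, as in retinoic acid receptor sites, were in 2 of the 20 (18.1% of all starts), TGATNNAT, as in sites of PBX with HOX, in 2 (6.47%), TGACAG in 2 (13.0%) and TATAAA in 4 (10.7%). Several of the 20 starts belong to 1 gene, and a match is a description of letters only.

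The genes around the HOX clusters were read with them in part. Genes within 500 kb of a cluster were listed after the values had been seen, and names were matched to GENCODE 44. Of 23 such genes outside the clusters with at least 10 CPM, 4 had at least 4 times the level of the remaining cells (log2 ratio of CPM + 10 of at least 2), where 1.18% of all 10855 genes compared did so. The other 19 were not 4-fold apart, and the median log2 ratio of the 23 was 0.14. SKAP1, an adaptor protein known from T cells that lies 98.3 kb from cluster B, had 326 CPM in the HOX-positive neurons and 1.36 in the remaining cells, a log2 ratio of 4.89, with 30.5% of its reads in 1 cell. Its relative SKAP2 (chr7:26667068-26995239), 97.8 kb from cluster A, had 268 CPM against 34.4, with reads in 70.9% of the cells against 16.2%. The other neighbours were the noncoding genes LINC02381, with 418 CPM against 25.8, and FLJ12825, with 108 CPM against 0.928, both beside cluster C. Between the HOX genes lies HOXB-AS3, a noncoding antisense gene, with 644 CPM against 14.2 (log2 ratio 4.76). The HOX-positive cells without the neuron genes also had levels above the remaining cells, with 91.4 CPM of SKAP1, 199.8 of SKAP2, 268 of LINC02381, 74.9 of FLJ12825 and 420 of HOXB-AS3. The strand setting of the counting is not stated. Where HOXB-AS3 overlaps HOXB3, HOXB5 and HOXB6, a read can have been assigned to none or to the wrong gene. The level of HOXB-AS3 is therefore uncertain and can hold reads of these HOX genes.

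HOX proteins bind DNA with PBX and MEIS partners. Of 9 listed partner genes 7 were compared with the remaining cells, and PBX3 was the 1 that was at least 4-fold higher, with 263 CPM against 29.6, 54.5% of the cells against 13.1%. Its columns ran from 0 to 907 CPM, which includes the level of the remaining cells. MEIS2 had 171 CPM against 65.4, and MEIS1 152 CPM against 143. Against the ATOH7 or POU4F2 cells none of the 8 partner genes compared was 4-fold apart (median log2 ratio 0.59), where 0.312% of all genes compared were higher and 0.257% lower.

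Retinoic acid was in the medium of all cells. CYP26B1, an enzyme that breaks down retinoic acid, had 328 CPM in the HOX-positive neurons (0, 272 and 940 over the columns) against 20.1 CPM in the remaining cells, and was detected in 46.4% against 6.81%. It was the only one of 14 genes compared from the list for retinoic acid response and handling that was 4-fold higher. Its relative CYP26A1 went the other way, at 229 against 795 CPM and 49.1 against 69.1% of the cells. CRABP1, a retinoic acid carrier, had 437 against 815 CPM, DHRS3, a retinaldehyde reductase, 462 against 241 CPM, and the receptor gene RARB 63.4 against 37.0 CPM. The list as a whole had a median log2 ratio of -0.53, beside 0.07 for all genes compared, of which 1.18% were 4-fold higher. Against the ATOH7 or POU4F2 cells 0 of 13 genes of the list were 4-fold apart (median log2 ratio 0.01). Against the HOX-positive cells without the neuron genes 0 of 12 were (median -0.50), so CYP26B1 was not 4-fold apart from either group.

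The HOX-positive neurons were next compared with the 81 ATOH7 or POU4F2 cells, which carry the retinal ganglion cell factors. Only 40 of the 81 have the neuron genes that every HOX-positive neuron has by the rule. At 4-fold, 34 of 10896 genes were higher (0.312%) and 28 lower (0.257%), and against those 40 cells, a comparison added after seeing the data, 49 were higher and 48 lower. The HOX genes and the absence of ATOH7 and POU4F2 follow from the rule, and 5 of the 19 HOX genes compared were among the 34. Among the genes outside the rule, SKAP1 (log2 ratio 2.84) led the higher genes. Other such genes were ENC1, an actin-binding protein of neurons (228 against 28.9 CPM), FUT9, a fucosyltransferase that makes a carbohydrate epitope of neural cells (104 against 9.29 CPM), and RBFOX1, a neuronal splicing factor (58.1 against 3.50 CPM). ENC1 was read in every column (27.2 to 644 CPM), and FUT9 and RBFOX1 were absent from the lowest.

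The genes lower in the HOX-positive neurons included CHRNA3, a nicotinic acetylcholine receptor subunit, at 24.6 against 331 CPM (log2 ratio -3.30), detected in 8.18% of the cells against 45.7%. PRPH, an intermediate filament protein of neurons with peripheral axons, had 20.4 against 157 CPM. The adhesion gene CNTN2 had 35.5 against 196 CPM and RGS16, a regulator of G protein signalling, 208 against 1002 CPM. FABP3, a fatty acid binding protein, had 15.3 against 699 CPM, but 52% of its reads in the ATOH7 or POU4F2 cells came from 1 cell. CENPF, a kinetochore protein of dividing cells, had 46.7 against 273 CPM. NEUROD1 and NHLH1, factors of newly born neurons, had 96.1 against 434 CPM and 27.9 against 148 CPM. These 2 were the only ones of 20 pan-neuronal regulators that were 4-fold lower, and none was 4-fold higher. Against the 40 cells with the neuron genes, the log2 ratio of CENPF went from -2.32 to -0.38, that of NEUROD1 from -2.06 to -0.64 and that of RGS16 from -2.22 to -1.95, while CHRNA3 (-3.66), PRPH (-3.14), CNTN2 (-2.84), FABP3 (-5.62) and NHLH1 (-2.14) were still 4-fold lower. ENC1 (3.91), SKAP1 (2.27), FUT9 (2.45) and RBFOX1 (2.14) were still 4-fold higher.

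**Figure D3:**
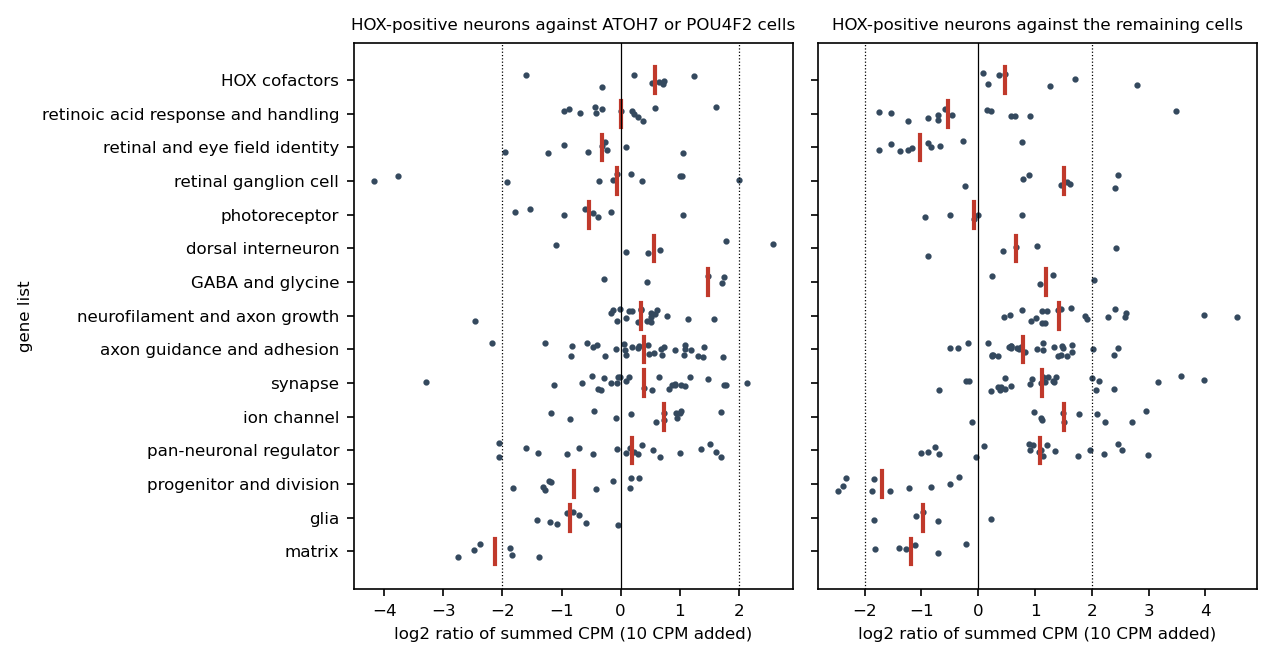
Log2 ratio of summed CPM, with 10 CPM added, of the genes of 15 lists in the HOX-positive neurons against the ATOH7 or POU4F2 cells (left) and against the remaining day 60 cells (right). Each point is a gene, the red bar the median of a list and the dotted lines 4-fold. On the right the synapse list has a median of 1.12 and the eye field list -1.03, and on the left the lists for synapse (0.40) and eye field (-0.32) lie closer to 0.

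Against the 191 remaining cells 128 of 10855 genes were 4-fold higher (1.18%) and 34 lower (0.313%). The HOX and neuron genes were again part of these by choice. The remaining cells do not meet the rule for the neuron genes, so higher levels of other genes of neurons are tied to that choice too. Of the synapse list 7 of 26 genes were 4-fold higher and none lower. GRIA2, an AMPA receptor subunit, had 331 against 11.6 CPM and was detected in 49.1% against 5.24% of the cells. SYT4, a synaptotagmin, had 524 against 91.1 CPM. The NMDA receptor subunit GRIN2B, with 88.9 against 12.5 CPM, and the glycine receptor subunit GLRA2, with 87.7 against 0.870 CPM, were also among the 7. Of the ion channel list 4 of 11 genes were 4-fold higher, among them the sodium channel SCN3A with 344 against 44.3 CPM. Of the guidance and adhesion list 3 of 30 were, with CHL1 at 255 against 40.5 CPM, and of the regulators 4 of 20, with the splicing factor NOVA1 at 316 against 59.8 CPM. NOVA1 was even over the columns, at 188, 255 and 523.5 CPM, all above the level of the remaining cells, whereas GRIA2 ran from 0 to 753 CPM.

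Genes of dividing cells were lower. TOP2A, which untangles DNA in division, had 111 against 661 CPM, and CENPF had a log2 ratio of -2.96. UBE2C and CCNB1, which drive cells through mitosis, were lower too, so 3 of the 10 progenitor and division genes compared were 4-fold lower and none was higher, with a median of -1.69. TOP2A was still detected in 26.4% of the HOX-positive neurons, and its columns ran from 0 to 519 CPM. HES1, a Notch target of progenitors, was detected in 50.9% at 635 CPM, against 92.1% at 2370 CPM, and SOX2 in 24.5% against 56.5%.

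The HOX-positive cells without the neuron genes share the HOX rule but differ in more than the neuron genes. Their median HOX level was 922 CPM, against 2550 CPM in the HOX-positive neurons. In the HOX-positive neurons 3 of 6 glia genes and 4 of 11 progenitor and division genes compared were 4-fold lower, and none was higher. The comparison does not set the neuron genes apart from these differences. At 4-fold, 62 of 10951 genes were higher in the HOX-positive neurons (0.566%) and 67 lower (0.612%). No HOX gene of 19 was 4-fold apart, although 18 had a log2 ratio above 0 (median 0.75). Beside the rule genes, GRIA2 (331 against 25.2 CPM), the vesicle protein NSG1 (210.9 against 13.8) and the secreted neuronal glycoprotein OLFM1 (549.7 against 59.9) were higher, each with a log2 ratio of at least 3. OLFM1 was detected in 72.7% of the cells against 15.6%, and its lowest column (145 CPM) was above the level of the other group (59.9 CPM). Connective tissue genes led the lower ones. COL1A2 had 57.9 against 565 CPM, COL3A1 39.3 against 464, LGALS1 8.26 against 448 and TGFBI 4.37 against 240 CPM, and 6 of the 7 matrix genes were 4-fold lower. TIMP1 had the lowest log2 ratio, -4.79, with 71.6% of its reads in the other group from 1 cell.

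Neurons of the hindbrain and spinal cord are told apart by their transmitter and by the transcription factors of their birthplace. GAD1 and GAD2 make GABA, SLC32A1 loads GABA and glycine into vesicles, and SLC6A5 takes up glycine. At least 1 of these 4 was detected in 39 of the 110 HOX-positive neurons (35.5%, 26.6 to 45.2), against 8 of the 81 ATOH7 or POU4F2 cells (9.88%, 4.36 to 18.5) and 4 of the 29 HOX-low neurons (13.8%, 3.89 to 31.7). These intervals cover counting error over cells and are no test between groups. That of the HOX-low neurons overlapped that of the HOX-positive neurons. Only 40 of the 81 ATOH7 or POU4F2 cells have the neuron genes, which the HOX-positive and HOX-low neurons have by the rule. At least 2 genes of the 5-gene GABA and glycine list were detected in 18 HOX-positive neurons (16.4%), in 0 of the 81 ATOH7 or POU4F2 cells and in 0 of the 29 HOX-low neurons. The glycine gene SLC6A5 was detected in 15 cells, a GABA gene in 34 and both in 10. By level, GAD2 had 52.9 CPM (0, 28.3 and 203 over the columns), SLC6A5 34.1 CPM (0, 16.3 and 149), GAD1 19.3 CPM and SLC32A1 18.0 CPM. Each was absent from at least 1 column, so the columns overlap with the other groups.

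PAX2 and PAX8 are factors of dorsal inhibitory interneurons, and PAX2 is also a gene of the optic stalk. At least 1 of them was detected in 32 HOX-positive neurons (29.1%, 20.8 to 38.5) and in 7 of the 81 ATOH7 or POU4F2 cells (8.64%, 3.55 to 17.0). At least 1 was also detected in 39 of the 167 HOX-positive cells without the neuron genes (23.4%, 17.2 to 30.5). The same held for 33 of the 191 remaining cells (17.3%, 12.2 to 23.4), so these factors were not confined to the HOX-positive neurons. A GABA or glycine gene was detected in 20 of these 32 cells (62.5%, 43.7 to 78.9) and in 19 of the other 78 (24.4%, 15.4 to 35.4). Among the 39 and 33 cells of those 2 groups it was detected in 11 and 2. PAX8 was the 1 gene of 6 compared from the dorsal interneuron list that was 4-fold higher than in the ATOH7 or POU4F2 cells, with 73.5 against 3.94 CPM. LBX1, a factor of dorsal hindbrain and spinal cord interneurons, was detected in 8 HOX-positive neurons (7.27%) and, at 5 reads, in no cell of the other 4 groups of day 60. With fewer than 5 reads per cell, LBX1 was also read in all of these groups but the remaining cells. In the HOX-positive neurons it was near the floor. It had 9.84 CPM and 25.1% of its reads were in 1 cell. LBX1, LHX1 or LHX5 was detected in 19 cells, 11 of them with a GABA or glycine gene.

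Other classes were rarer. The vesicular glutamate transporters SLC17A6 and SLC17A7 were detected in 8.18% and 11.8% of the HOX-positive neurons, with 13.2 and 31.1 CPM, and 43.99% of the SLC17A7 reads were in 1 cell. SLC17A8 had no reads. TH, the enzyme of catecholamine synthesis, was detected in 7 cells. Of the motor neuron list LHX3, PHOX2A, TBX20 and SLC18A3, the vesicular acetylcholine transporter, had no reads in the HOX-positive neurons, nor in the other 4 groups of day 60, and 96.6% of the ISL1 reads were in 1 cell. Other genes of that list were read, with FOXP1, which is used in many cell types, in 71.8% of the HOX-positive neurons and PRPH in 21.8% at 1 read. At least 2 genes of the list were detected in 13.6% of the HOX-positive neurons, 33.3% of the ATOH7 or POU4F2 cells and 13.1% of the remaining cells. MNX1 and CHAT were not analysed here. The serotonin genes SLC6A4 and FEV had no reads. No GABA, glycine or glutamate gene was detected in 55 cells (50%).

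**Figure D4:**
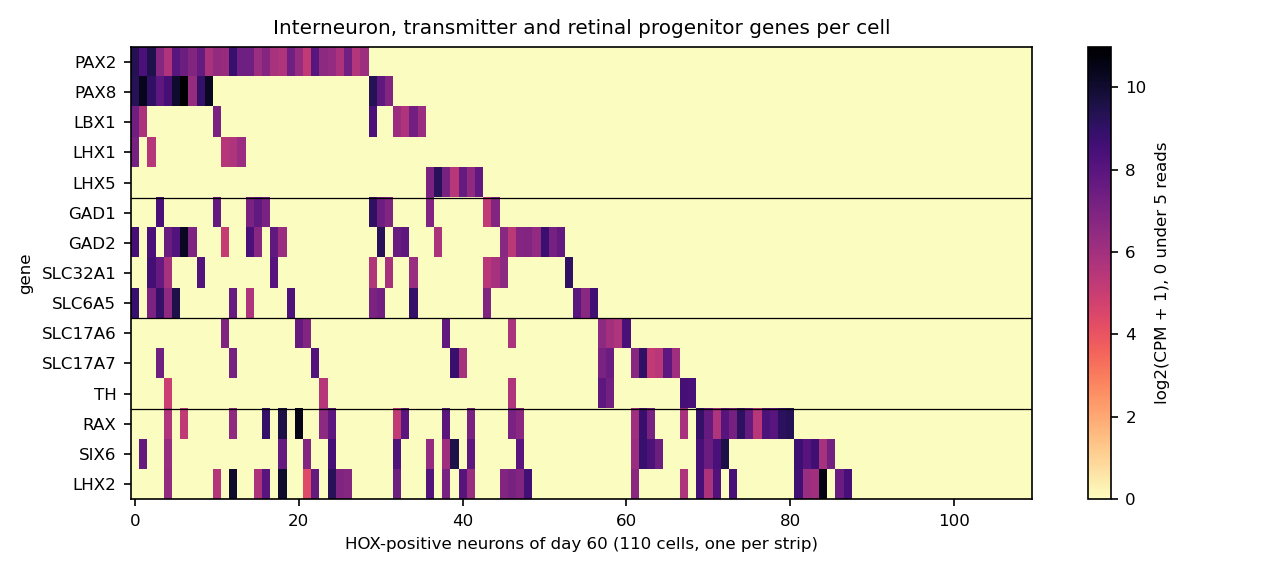
Level of interneuron factors, transmitter genes and retinal progenitor genes in each of the 110 HOX-positive neurons, as log2(CPM + 1) with values under 5 reads set to 0 (1 strip per cell, sorted by the genes from top to bottom). GABA and glycine genes are found in 20 of the 32 cells with PAX2 or PAX8 at the left, and cells with RAX, SIX6 or LHX2 are found among cells of every class.

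Genes of the eye field were lower than in the remaining cells but not absent. SIX3 was detected in 55.5% of the HOX-positive neurons at 296 CPM (11.4, 200 and 775), against 76.96% at 357 CPM. PAX6, which is also used in the spinal cord, was detected in 63.6% at 277 CPM, against 78.5% at 502 CPM. The genes RAX, SIX6 and LHX2 were detected in 27.3%, 21.8% and 29.1%, against 56.02%, 63.4% and 60.7%. Over the list, 0 of 10 genes were 4-fold apart and 1 of the 10 had a log2 ratio above 0 (median -1.03). At least 2 of RAX, SIX6 and LHX2, a set chosen after their values were seen, were detected in 25 HOX-positive neurons (22.7%, 15.3 to 31.7), in 39.5% of the ATOH7 or POU4F2 cells and in 64.9% of the remaining cells (57.7 to 71.7). These 25 cells lay in 16 columns. Their median HOX level was 1547 CPM against 2752 CPM in the other 85, their median HES1 level 952 against 16.9 CPM, and their median read number 198822 against 147420. At 50000 reads they had a median of 3752 genes, against 2985. Without these 25 cells, the genes 4-fold higher and lower than in the ATOH7 or POU4F2 cells numbered 55 and 65, and those lower than in the remaining cells 89. None was called a doublet, and whether wells with more than 1 cell or free RNA had a part in these values was not tested.

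Markers of other cell types were summarised by list, as the share of cells with at least 2 of its genes. For the progenitor and division list this was 74.5% of the HOX-positive neurons, against 90.1% of the ATOH7 or POU4F2 cells and 95.3% of the remaining cells, with summed levels of 1664, 2282 and 5353 CPM. For glia it was 20%, 38.3% and 43.5%, and the defining genes GFAP, AQP4 and OLIG2 had no reads in the HOX-positive neurons. For photoreceptors it was 3.64%, 17.3% and 9.42%, for pigment epithelium 3.64%, 9.88% and 18.3%, and for matrix 15.5%, 18.5% and 14.7%. The matrix list reached 28.1% in the HOX-positive cells without the neuron genes. The stress list was found in 83.6% of the HOX-positive neurons and in 84.0 to 92.2% of the other groups. For the forebrain and midbrain list the share was 13.6% of the HOX-positive neurons, 40.7% of the ATOH7 or POU4F2 cells and 19.4% of the remaining cells. EMX1, TBR1, EOMES, DLX2 and LHX6 had no reads in the HOX-positive neurons. All of these but DLX2 also had none in the ATOH7 or POU4F2 cells, and EMX1 and TBR1 had none in any group of day 60. For the retinal ganglion cell list, which holds ATOH7 and POU4F2, it was 64.5%, 81.5% and 16.8%. For horizontal and amacrine cells it was 13.6%, 28.4% and 7.85%, and for sensory and autonomic ganglia 14.5%, 14.8% and 4.19%. The part of these cell types in the differences above was not tested.

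The rule was then applied to the other chips. Of the neurons with few ATOH7 and POU4F2 reads, 110 of 139 had reads in at least 3 HOX genes at day 60 (79.1%, 71.4 to 85.6), 18 of 58 at day 90 (31.03%, 19.5 to 44.5), 0 of 9 on chip a of day 200 and 12 of 20 on chip b (60%, 36.1 to 80.9). The 0 of 9 cells on chip a allows a share of up to 33.6% by the same exact interval. Cells without the neuron genes had lower shares on the same chips, at 46.1%, 7.99%, 4.61% and 25.5% in the same order. The 2 chips of day 200 thus differed by more than day 60 and chip b did, and the days do not form an order. After thinning to 50000 reads the shares of the neurons were 73.4%, 25.9%, 0% and 55%. Thinning did not make the chips alike in the number of genes read. At 50000 reads the 9 neurons of chip a had a median of 1561 genes. The HOX-positive neurons of chip b had 3196 and those of day 60 had 3086. The rule counts genes with reads, and the part of this difference in the shares was not tested. Of the day 60 neurons with ATOH7 or POU4F2, 21 of 40 had reads in at least 3 HOX genes (52.5%, 36.1 to 68.5).

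The HOX outline of the later cells kept cluster B in front. HOXB5 had 801.5 CPM in the 18 cells of day 90 and 633 CPM in the 12 cells of chip b, beside 633 CPM at day 60, and per kilobase cluster B held 85.9% and 76.3% of the HOX level. The summed HOX level per cell had medians of 1616 and 1820 CPM. HOXA5 had 125 and 135 CPM, beside 277. At day 90, 376 of 11134 genes were 4-fold lower than in the day 60 cells (3.38%) and 294 higher (2.64%), with HOXA2 and HOXC8 among the lower and no HOX gene among the higher. On chip b, 390 of 11067 genes were lower (3.52%) and 284 higher (2.57%), with HOXA3 and HOXC8 among the lower and HOXD8 among the higher. HOXA2 and HOXC8 were each detected in 11.8% of the day 60 cells. HOXB9 had 64.2 and 41.7 CPM, beside 138.5, and group 9 was the highest detected in 2 of 18 and 4 of 12 cells, beside 57.3% at day 60. Counting 1 read, group 9 was the highest in 2 of 18 and 9 of 12 cells, beside 75.5%, so on chip b the difference depended on the read number, and with 1 read after thinning in 2 and 5 cells, beside 66.4%.

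With 18 and 12 cells, many ratios rested on 1 cell. Without the highest cell of each gene in each group, 49 genes were higher and 684 lower at day 90, and 54 and 770 on chip b. MT2A, a metallothionein and the gene with the largest ratio at day 90, had 95.6% of its reads in 1 cell. ADCY1, a neuronal adenylyl cyclase, was broader, with 628 CPM at day 90 against 39.9, detected in 15 of 18 cells, and a log2 ratio of 3.68 with and without its highest cell. Its level in the other cells of the chips was also higher at day 90, at 168 CPM against 45.7. SCG2, a secretogranin of dense core vesicles, had 1330 CPM on chip b against 141, detected in 11 of 12 cells, while the other cells of the chips had 67.98 and 54.8 CPM. GAD1 had 130 CPM at day 90 and 131 on chip b, beside 19.3 at day 60.

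Among the lower genes, some were lower in all cells of a chip. The mitochondrial tRNA gene MT-TL1 had 327 CPM in the day 60 HOX-positive neurons and 6.35 and 3.61 CPM in those of day 90 and chip b, and the other cells of the 3 chips had 393, 4.92 and 6.74 CPM. The small Cajal body RNA SCARNA22 went the same way, with 456, 12.7 and 15.9 CPM, beside 618, 18.8 and 42.4 CPM in the other cells. SFRP2, a secreted Wnt modulator, had 260, 30.3 and 0.556 CPM in the HOX-positive neurons and 506, 187.5 and 320 CPM in the other cells. NES, an intermediate filament of neural progenitors, had 143, 24.5 and 2.22 CPM, while the other cells had 224, 229 and 226 CPM. TOP2A had 111, 0.605 and 3.61 CPM, and in the other cells 563, 165 and 11.8 CPM.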

How the data were processed

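Single cells of H9 CRX-GFP retinal organoids were captured on Fluidigm C1 HT chips, and full-length cDNA was made with SMART-Seq v4 and sequenced in pairs. The authors trimmed reads with Trimmomatic 0.33, aligned them with STAR 2.4.0 to GRCh38.p7 with GENCODE 25, used HTSeq 0.6 to count them per gene and removed poor cells and rarely read genes, and the deposited values are raw counts of reads for 1976 cells and 24415 rows. The spike-in row (0.00479% of reads) was left out, which left 24414 genes. All 79 columns were mapped to a chip by their labels.

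The HOX-positive neurons were found by the rule given, with fewer than 5 reads required of each of ATOH7 and POU4F2. Summed reads were divided by the summed library size (CPM). Ratios were log2((CPM + 10)/(CPM + 10)) for genes with at least 10 CPM in either group, and genes past 4-fold were called. No test was made, as columns and cells are not replicates. Cells were also thinned to 50000 reads, which leaves out 6 cells of the data set with fewer. Python 3.11.15 was used with numpy 2.4.6, pandas 2.3.3, scipy 1.17.1 and scanpy 1.11.5 (doublet calls by scrublet). The ratios and the thinning were tested on simulated data. Coordinates and exon lengths are from GENCODE 44 on GRCh38, whose symbols matched 18437 genes (75.5%).

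The cells, the gene lists and the rule for names were chosen with earlier results of these data known. Named were the 6 neuron genes, every HOX gene, up to 6 genes of each list by share of HOX-positive neurons with a read, list genes at 0, and for each comparison the 10 genes with the largest ratio in each direction in which the higher group had 50 CPM or more and the gene was read in 20% of its cells or more. Other genes, such as SKAP2, TUBB3, SOX2, NHLH1 and GRIN2B, were chosen after their values were seen. Several genes of the lists are not reported here. Alternatives were the offset, the thresholds, thinning, depth and mitochondrial filters, the mean of cells and removal of doublets, of single cells or of cells with retinal genes.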

Additional observations from a re-analysis of the deposited data

How the results depend on the processing

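The number of HOX-positive neurons was 110, 69 with 4 of the 6 neuron genes and 50 among cells with at least 150000 reads and at most 10% mitochondrial reads. Counts of 4-fold genes depended on the offset. With 2 CPM in place of 10, the higher and lower genes were 345 and 306 against the ATOH7 or POU4F2 cells, 353 and 322 against the HOX-positive cells without the neuron genes, 498 and 238 against the remaining cells, 985 and 1697 at day 90 and 899 and 1835 on chip b. With 50 CPM they were 3 and 5, 9 and 11, 26 and 2, 14 and 8, and 7 and 7. Thinned to 50000 reads, they were 80 and 69 against the ATOH7 or POU4F2 cells and 466 and 702 at day 90. The lower genes numbered 48 against those ATOH7 or POU4F2 cells that have the neuron genes. Without the HOX-positive neurons that detect at least 2 of RAX, SIX6 and LHX2 (dropped from both chips at day 90), the higher and lower genes were 55 and 65 against the ATOH7 or POU4F2 cells, 100 and 102 against the HOX-positive cells without the neuron genes and 613 and 879 at day 90, and the lower genes were 89 against the remaining cells. The last 2 settings, and that without the highest cell of each gene, were chosen after seeing the data. With the mean of the CPM of cells the lower genes numbered 20 against the remaining cells. Without the highest cell of each gene the counts were 49 and 684 at day 90 and 54 and 770 on chip b.

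The share of HOX-positive neurons with HOXB5 was 80% with 1 read in place of 5, and that with HOXB9 was 73.6% with 1 read and 41.7% after thinning. With 1 read and after thinning, the shares with 2 genes of a list were 40% and 12.5% for glia, 35.5% and 8.33% for matrix and 94.5% and 58.3% for progenitor and division. Of 135 alternative values, 87 were close to the value reported and 48 moved, which are those given here. Of 920 alternative ratios of 100 named genes, 846 stayed, 71 moved and 3 changed sign. The ratio of A2M at day 90 was -0.06 after thinning (3.53 before), and that of MGP against the ATOH7 or POU4F2 cells was 0.17 after thinning and 0.07 against those with the neuron genes (-2.49 before). The cause of these changes was not tested beyond what each setting removes. No paired analysis was possible because chip columns of different chips share only a number and no test was made. Chip a of day 200 held no such cell and gives no ratio.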
